A study of Rattus norvegicus with 8 samples.

Results

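The genes described here are 10 members of the bone morphogenetic protein (BMP) pathway: the ligands Bmp2, Bmp4, Bmp6 and Gdf10, the receptors Bmpr1a and Bmpr2, the antagonist Grem1, and the target genes Id1, Id2 and Id3. They were taken by gene name from the 32623 rat genes listed in the count files, and all 10 were found once each and passed the filter on low counts, with 11682 genes tested in all. RNA had been sequenced from the outflow (epigastric) veins of femoral-epigastric arteriovenous fistulas (AVFs) in 8 Sprague Dawley rats, 21 days after AVF creation. 4 rats had received a BAPN scaffold (3 females and 1 male) and 4 had received a vehicle scaffold (2 females and 2 males), wrapped around the vein near the anastomosis at surgery. BAPN (β-aminopropionitrile) blocks lysyl oxidases, the enzymes behind collagen and elastin crosslinks. Both groups carried an AVF and a polymer wrap, the vehicle wrap without BAPN, so that every comparison is between wrapped fistula veins at a single time and none is with an untouched vein. Strain and surgery are as in the methods of the study, and neither the labels nor the methods give the ages of the sequenced rats.

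BMPs are secreted proteins of the TGF-β superfamily. A dimeric ligand joins type I receptors such as BMPR1A and type II receptors such as BMPR2, which phosphorylate SMAD1 and SMAD5. These enter the nucleus with SMAD4 and switch on targets, among them the Id genes, whose proteins bind E proteins and keep them from DNA. Antagonists such as gremlin 1 and chordin hold ligands away from receptors, and SMAD6 and SMAD7 damp the signal from inside the cell. In vessels the pathway is known for its part in endothelial quiescence and smooth muscle phenotype, and loss of BMPR2 function is a known cause of heritable pulmonary arterial hypertension.

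The total count per rat ranged from 45039451 to 52241007 with BAPN and from 19548203 to 22442050 with vehicle, so depth separated the groups and cannot be told apart from treatment as a source of differences. All 8 libraries were therefore also thinned to the smallest total. Expression is given as CPM (a gene's read count scaled to a common library total, with TMM normalisation), log2 fold changes compare BAPN with vehicle in edgeR, and the standard error (SE) beside them is from limma-voom. False discovery rates (FDR) are adjusted over all 11682 genes, and a gene is called at an FDR below 0.05. Counts per gene were not divided by transcript length, so levels are compared between rats and not between genes. The 7 endothelial markers with a count row (Cdh5, Vwf, Kdr and others) and the 7 smooth muscle markers were all detected. Their summed levels differed between the groups. Endothelial markers summed to 466 to 623 CPM with BAPN and 759 to 1520 CPM with vehicle, without overlap, and 2 of 7 were called, both lower. Smooth muscle markers summed to 1660 to 4220 and 3210 to 5970 CPM, with 5 of 7 called lower, and fibroblast markers to 3560 to 5350 and 4180 to 8630 CPM, with 1 of 7 called lower. Macrophage markers summed to 2910 to 3700 CPM with BAPN and 2110 to 3200 CPM with vehicle (0 of 7 called), and T cell markers to 22.8 to 74.3 and 13.7 to 30.0 CPM (1 of 5 called, higher). For adipocyte markers the sums were 1070 to 2930 and 443 to 1710 CPM, with overlap and with BAPN 4 the highest, and 4 of the 5 tested members had a log2 fold change below 0 (median -1.43, 1 called, lower), for Schwann cell markers 46.3 to 278 and 55.9 to 108 CPM, for skeletal muscle markers 16.1 to 30.0 and 17.1 to 69.7 CPM, and for keratinocyte markers 1.66 to 10.9 and 0.643 to 5.26 CPM (none called among Schwann cell or skeletal muscle markers, and no keratinocyte marker passed the filter). In whole veins, fewer cells of a type and less RNA per cell cannot be told apart, and the part of cell makeup in the results below was not tested.

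Of the 10 genes, 2 were called, the ligand Gdf10 and the receptor Bmpr2, and both were lower in BAPN-treated veins. Over all tested genes edgeR called 16.8%, with 9.25% lower and 7.5% higher, so 2 of 10 is close to the share over all genes. 7 of the 10 had a log2 fold change below 0, and the median was -0.61, against 0.02 over all tested genes, of which 48.4% were below 0. The groups did not overlap for Gdf10 and Bmpr2 and overlapped for the other 8 genes. Over all tested genes 24.7% had no overlap, and 11.9% had none with BAPN lower. DESeq2 called 27.4% of all genes and 3 of the 10, adding Bmp4.

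**Figure D1:**
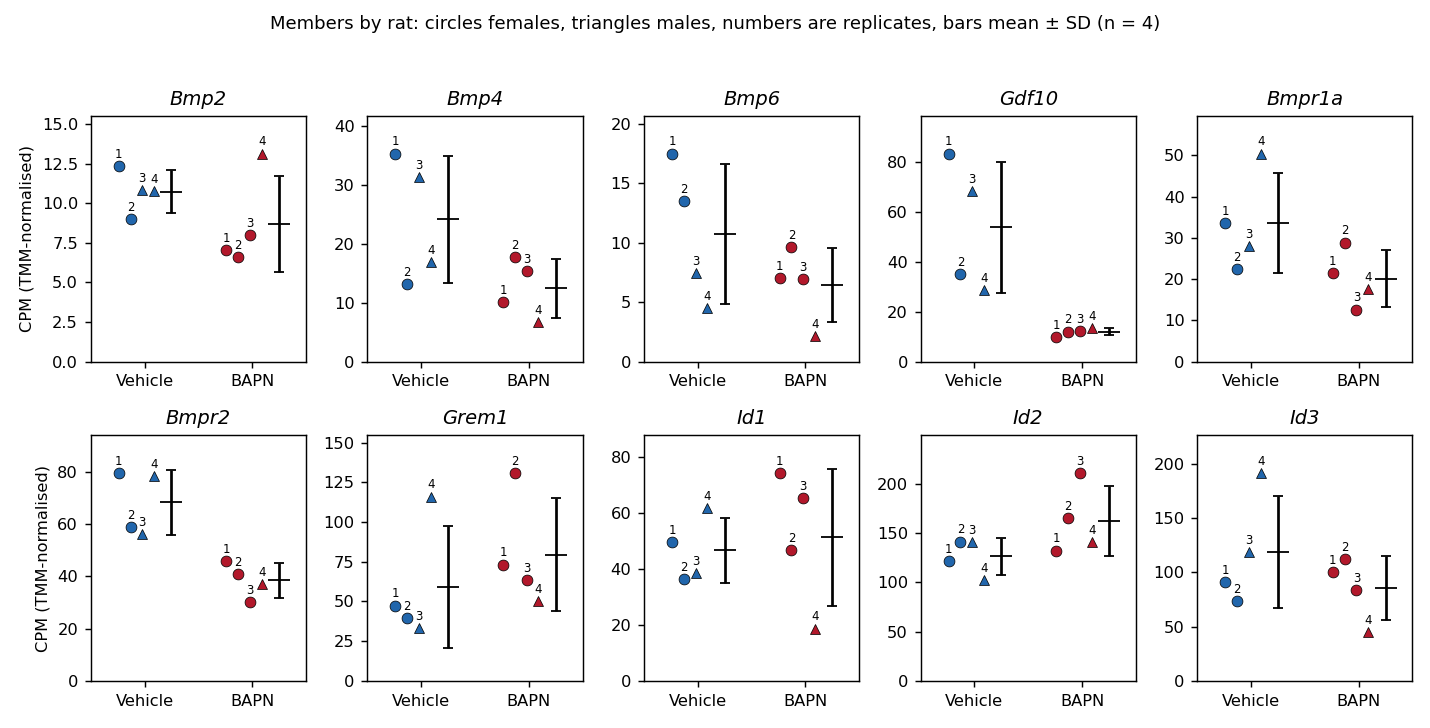
Expression of the 10 genes (CPM after TMM normalisation, vertical axes from 0) in each of the 8 rats, with circles for females, triangles for males, replicate numbers above the points, and the group mean ± SD (n = 4) as a bar. The BAPN and vehicle rats are apart for Gdf10 and Bmpr2 and overlap for the other 8 genes, and BAPN 4 is the lowest rat for Bmp4, Bmp6, Id1 and Id3.

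Gdf10 (ENSRNOG00000051993), also named BMP3B, encodes a divergent ligand of the family. It was at 10.02, 12.1, 12.3 and 13.6 CPM in BAPN 1 to 4 and at 83.2, 35.1, 68.3 and 28.6 CPM in Vehicle 1 to 4. The groups did not overlap, and the BAPN rats lay close together (11.997 ± 1.48 CPM, SD, n = 4) while the vehicle rats were spread (53.8 ± 26.2 CPM, SD, n = 4). The log2 fold change was -2.17 (SE 0.35, FDR 0.00876), a level 4.49 times lower with BAPN (exact two-sided permutation test, p = 0.0286, the smallest that 4 against 4 allow). The call held in all 8 fits that left out 1 rat, with log2 fold changes from -2.37 to -1.88 and FDRs up to 0.0305. It also held among females alone (-2.37, FDR 0.0468) and with libraries thinned to equal totals (-2.15, FDR 0.00826). The study names Gdf10 from these libraries, so its direction is no independent evidence.

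Bmp4 (ENSRNOG00000009694), a ligand made by vascular cells, was at 10.1, 17.8, 15.3 and 6.66 CPM in BAPN 1 to 4 and at 35.3, 13.1, 31.2 and 16.9 CPM in Vehicle 1 to 4. Vehicle 1 and Vehicle 3 were above all BAPN rats, while Vehicle 2 and Vehicle 4 lay within their range. Its log2 fold change was -0.96 (SE 0.39, FDR 0.107 in edgeR and 0.0474 in DESeq2), and with 1 rat left out it ran from -1.19 to -0.72 without a call in edgeR.

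Bmp6 (ENSRNOG00000013717), known in the liver as an endothelial signal of iron stores, was at 7.03, 9.64, 6.94 and 2.15 CPM in BAPN 1 to 4 and at 17.5, 13.5, 7.45 and 4.54 CPM in Vehicle 1 to 4. The sexes differed within each group: the BAPN male was below the 3 BAPN females, and both vehicle males were below both vehicle females. The log2 fold change was -0.74 (SE 0.54, FDR 0.312) without a term for sex and -1.15 (FDR 0.0389) with sex as a covariate. Among females alone it was -0.98 (FDR 0.1). It was smaller without Vehicle 1 (-0.40, FDR 0.629) or BAPN 4 (-0.46, FDR 0.491). Bmp6 had the lowest counts of the 10 genes, 95 to 489 reads per rat.

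Bmp2 (ENSRNOG00000021276), a ligand best known from bone and heart valve formation, was at 7.03, 6.59, 8.003 and 13.1 CPM in BAPN 1 to 4 and at 12.4, 8.995, 10.8 and 10.7 CPM in Vehicle 1 to 4. The 3 BAPN females were below all 4 vehicle rats, and the BAPN male was the highest of the 8. BAPN against vehicle gave a log2 fold change of -0.30 (SE 0.25, FDR 0.385), with a limma-voom 95% interval from -0.93 to 0.21. Without BAPN 4 it was -0.58 (FDR 0.0869).

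The type II receptor Bmpr2 (ENSRNOG00000022196) was at 45.7, 41.0, 30.1 and 37.2 CPM in BAPN 1 to 4 and at 79.6, 58.9, 56.3 and 78.5 CPM in Vehicle 1 to 4. All BAPN rats were below all vehicle rats. The group means were 38.5 ± 6.59 and 68.3 ± 12.4 CPM (SD, n = 4 each), a log2 fold change of -0.83 (SE 0.17, FDR 0.017) or a level 1.77 times lower (exact two-sided permutation test, p = 0.0286). Without Vehicle 1 the FDR was 0.0541 with a log2 fold change of -0.75, and among females alone the values were 0.105 and -0.83. The call held in the other 7 fits that left out 1 rat, with sex as a covariate (FDR 0.0379) and at equal totals (-0.84, FDR 0.0176).

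The type I receptor Bmpr1a (ENSRNOG00000052469) was at 21.5, 28.9, 12.7 and 17.6 CPM in BAPN 1 to 4 and at 33.7, 22.4, 28.0 and 50.4 CPM in Vehicle 1 to 4. BAPN 2 was above Vehicle 2 and Vehicle 3. The log2 fold change was -0.74 (SE 0.29, FDR 0.11), and it was -0.48 without Vehicle 4 and -0.42 among females alone. Both receptors were highest in Vehicle 1 and Vehicle 4 and lowest in BAPN 3, and after centring each gene on its own mean their log2 CPM differed by 0.287 (root mean square over the 8 rats), the smallest difference among the 45 pairs of the 10 genes.

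Grem1 (ENSRNOG00000026053) encodes gremlin 1, a secreted antagonist that binds BMP2 and BMP4. It was at 73.2, 131, 63.3 and 50.5 CPM in BAPN 1 to 4 and at 47.5, 39.5, 33.5 and 116 CPM in Vehicle 1 to 4. All BAPN rats were above 3 of the vehicle rats, and Vehicle 4 was above 3 of the BAPN rats. For Grem1 the log2 fold change was 0.43 (SE 0.40, FDR 0.487, limma-voom 95% interval -0.38 to 1.42), and without Vehicle 4 it was 0.99 (FDR 0.0721). Without BAPN 2 it was 0.06.

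Id1, Id2 and Id3 encode inhibitors of DNA binding and are among the fastest genes that BMP SMADs induce. None of the 3 was called in any of the fits run. Id1 (ENSRNOG00000021750) was at 74.2, 46.7, 65.1 and 18.7 CPM in BAPN 1 to 4 and at 49.6, 36.4, 38.3 and 61.7 CPM in Vehicle 1 to 4. The highest and the lowest of the 8 values were both from BAPN rats, and the log2 fold change was 0.14 (SE 0.41, FDR 0.807, limma-voom 95% interval -0.92 to 0.91). The interval is centred on the limma-voom estimate, which was -0.003 for Id1. In edgeR the sign of Id1 turned with sex as a covariate (-0.11) and without BAPN 1 (-0.10).

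Id2 (ENSRNOG00000007237) was at 132, 165, 211 and 141 CPM in BAPN 1 to 4 and at 122, 142, 141 and 102 CPM in Vehicle 1 to 4. It varied little, with the highest rat 2.07 times the lowest. The log2 fold change was 0.36 (SE 0.17, FDR 0.169, limma-voom 95% interval -0.03 to 0.74), and it was above 0 in all 8 fits that left out 1 rat (0.21 to 0.45). Id3 (ENSRNOG00000026124) was at 100.3, 112, 83.7 and 44.7 CPM in BAPN 1 to 4 and at 90.9, 73.8, 118 and 192 CPM in Vehicle 1 to 4. The log2 fold change of Id3 was -0.48 (SE 0.34, FDR 0.334, limma-voom 95% interval -1.24 to 0.31). Without Vehicle 4 it was -0.15 (FDR 0.761) and without BAPN 4 -0.28 (FDR 0.566).

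For Id3 all 3 males lay outside the range of the females, the BAPN male below it and both vehicle males above it. For Id1 the BAPN male alone did so, and both vehicle males lay within the range of the females. In females only, the values were 0.53 for Id1 and 0.26 for Id3 (log2 fold changes), the latter of opposite sign to the value over all rats. A treatment by sex interaction in edgeR put the effect in males below that in females by -1.95 for Id1 and by -2.06 for Id3 on the log2 scale. Over all tested genes its FDR was 0.24 and 0.182, and no gene was called (1442 had an unadjusted p below 0.05). BAPN 4 is the only BAPN male, so that sex effect cannot be told apart from a difference of that rat. For Id3 the high values of Vehicle 3 and Vehicle 4 enter it as well. BAPN 4 was the lowest rat in 4 of the 10 genes (Bmp4, Bmp6, Id1 and Id3) and the highest for Bmp2.

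**Figure D2:**
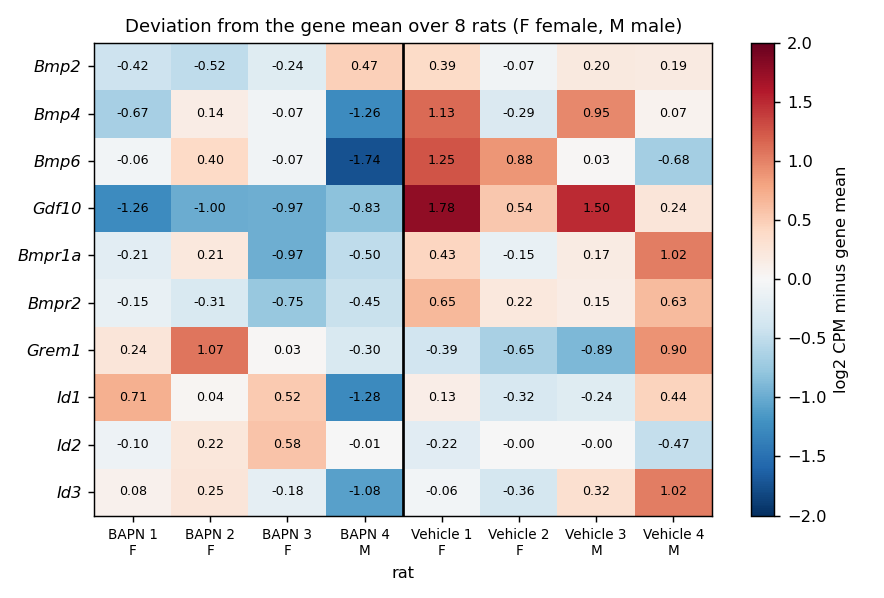
Deviation of each of the 10 genes (rows) from its own mean over the 8 rats (columns, F female and M male), in log2 CPM, red above and blue below the mean. The Gdf10 and Bmpr2 rows are blue in all 4 BAPN rats and red in all 4 vehicle rats, and BAPN 4 holds the lowest values of Bmp4, Bmp6, Id1 and Id3.

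The stretches of DNA before 4 of these genes are shown because Gdf10 had the largest difference and the Id genes are the usual read-out of BMP SMADs. They are RefSeq promoter windows of assembly GRCr8, from 250 to 81 bases before the start, written 5′ to 3′ on the gene's strand. Capitals mark 2 GC-rich motifs that BMP SMADs are known to bind, GGCGCC, which reads alike on both strands, and GGAGCC, searched on both strands. The motifs do not overlap in the stretches shown. Gdf10 lies at chr16:9243262-9243431 (+ strand), Id1 at chr3:161671314-161671483 (+), Id2 at chr6:47471076-47471245 (- strand) and Id3 at chr5:153656041-153656210 (+). The count files carry no coordinates, and the build behind them is not given in the sources used here.
Gdf10: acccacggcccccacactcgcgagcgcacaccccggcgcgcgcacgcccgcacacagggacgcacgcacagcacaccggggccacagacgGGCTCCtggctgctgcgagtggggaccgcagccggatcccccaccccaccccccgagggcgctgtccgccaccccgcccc
Id1: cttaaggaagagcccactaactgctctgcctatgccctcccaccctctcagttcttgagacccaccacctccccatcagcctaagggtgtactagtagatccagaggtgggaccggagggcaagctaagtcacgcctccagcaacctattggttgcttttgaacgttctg
Id2: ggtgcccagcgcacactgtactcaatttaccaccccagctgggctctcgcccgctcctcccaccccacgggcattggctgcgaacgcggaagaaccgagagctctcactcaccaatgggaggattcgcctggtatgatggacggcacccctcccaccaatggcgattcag
Id3: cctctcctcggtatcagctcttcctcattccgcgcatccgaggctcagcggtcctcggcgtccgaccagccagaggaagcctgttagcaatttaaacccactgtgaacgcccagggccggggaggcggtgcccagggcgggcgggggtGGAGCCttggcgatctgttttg

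A promoter entry was found for 9 of the 10 genes (Bmp2 had none), and 6 of these windows lay outside the gene's own RefSeq record (Gdf10, Bmpr1a, Grem1, Id1, Id2 and Id3). Among these 6, GGCGCC was present in 1 (Grem1) and GGAGCC in 2 (Gdf10 and Id3). Of 33469 promoter windows of the same length, 5.35% held GGCGCC and 15.6% held GGAGCC. The GC content of the 6 ran from 30.0% (Bmpr1a) to 78.2% (Gdf10), against a median of 50.6% over all windows. A match, or the lack of one, describes only the letters of these windows, and sequence outside them was not searched.

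The rest of the pathway was read from a list of 56 further genes by role, of which 32 passed the filter on low counts. 15 of the 32 were called, all lower with BAPN, beside 9.25% called lower over all genes. The list was fixed with earlier results of these data known, so this excess describes the list and is no independent evidence. 29 of the 32 had a log2 fold change below 0, with a median of -0.71 (32 of 32 when scaled by total counts alone). The number called fell by more than 1.5 times without Vehicle 1 (3), BAPN 3 (4), BAPN 1 or BAPN 4 (5 each), Vehicle 4 (7) or Vehicle 3 (9), and it was 18 without Vehicle 2. Calls over all 11682 genes moved too, from 1957 with all rats. They were 397 without Vehicle 1, 745 without BAPN 3, 1329 without BAPN 1 and 856 without BAPN 4. Without Vehicle 4 they were 963, without Vehicle 3 1210 and without Vehicle 2 2215. Over the 32 genes the median stayed between -0.79 and -0.54 in these fits. With sex as a covariate, since the groups differ in their numbers of males, 5 kept a call (Rgma, Rgmb, Chrd, Nbl1 and Smad5), and the other 10 had FDRs from 0.0525 to 0.0919 (median over the 32 genes -0.64). Over all 11682 genes that fit called 930, of which 541 were lower. Among females alone, 3 against 2, none was called in edgeR (12 had an unadjusted p below 0.05, median -0.43), where 89 of the 11682 genes were called, 54 of them lower. DESeq2 called 19 of the 32, beside the 27.4% given above. With other filters on low counts 13 and 11 of the 32 were called, beside 1876 of 14732 and 1539 of 20421 genes. As given above, summed endothelial markers were also lower in every BAPN rat than in every vehicle rat, and their part in these differences was not tested.

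Of 12 further ligands 1 was tested, Bmp3 (0.02, FDR 0.987), and it was not called. Among receptors and co-receptors 6 of 9 were tested and 4 were called. Rgma, a membrane-anchored BMP co-receptor first known as an axon guidance molecule, was at 48.3, 43.9, 35.9 and 42.9 CPM in BAPN 1 to 4 and at 91.9, 77.5, 79.8 and 86.4 CPM in Vehicle 1 to 4. The groups lay far apart for their spread, with a log2 fold change of -0.97 (SE 0.12, FDR 0.00413), and no single rat decided the call of Rgma (FDR up to 0.02 over 8 fits with 1 rat left out). Its relative Rgmb fell from 15.2 ± 1.16 to 9.35 ± 1.10 CPM (SD, n = 4 each; log2 fold change -0.70, FDR 0.0187) and lost its call without Vehicle 1 (FDR 0.0515). The type II receptor Acvr2a fell by 0.52 (FDR 0.0293) and the endothelial type I receptor Acvrl1, which binds BMP9 and BMP10, by 0.43 on the log2 scale (FDR 0.0309). Acvr2a kept its call in 3 of the 8 fits (largest FDR 0.0741, without BAPN 3) and Acvrl1 in 1, without Vehicle 2 (largest FDR 0.0874, without Vehicle 1). With all rats and no filter on low counts both lost their calls (FDR 0.0537 and 0.0678). Acvr1 (-0.35, FDR 0.231) and the endothelial co-receptor Eng (-0.49, FDR 0.17) were not called.

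Of 18 antagonists and modulators 11 were tested and 4 called. Chrd, which encodes the BMP2 and BMP4 binding antagonist chordin, was at 11.5, 10.3, 11.4 and 12.2 CPM in BAPN 1 to 4 and at 26.03, 17.5, 31.3 and 38.1 CPM in Vehicle 1 to 4. All BAPN rats were below all vehicle rats (log2 fold change -1.31, SE 0.22, FDR 0.0107), and the call held in all 8 fits that left out 1 rat (FDR up to 0.0351). Nbl1, which encodes the antagonist DAN, fell from 304 ± 83.5 to 158 ± 15.7 CPM (SD, n = 4 each; log2 fold change -0.95, FDR 0.0181), and lost its call without BAPN 3 or Vehicle 1 (FDR up to 0.0538). The chordin-like gene Chrdl1 (-1.77, SE 0.52, FDR 0.043) ranged from 30.2 to 134 CPM among vehicle rats and overlapped the BAPN rats, and Crim1 (-1.20, SE 0.32, FDR 0.0364) overlapped too. Chrdl1 kept its call only without Vehicle 2 (largest FDR 0.105, without Vehicle 1) and Crim1 in 3 of the 8 fits (largest FDR 0.094, without Vehicle 1). Fstl1, with the largest mean CPM of this group, was at -0.76 (SE 0.32, FDR 0.13).

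Of 8 Smad genes and regulators 7 were tested and 4 called. Smad5, which carries the BMP signal to the nucleus, was at 30.6, 27.6, 25.1 and 26.6 CPM in BAPN 1 to 4 and at 44.8, 40.4, 41.2 and 41.7 CPM in Vehicle 1 to 4. Rats of a group differed little, and the groups were apart (log2 fold change -0.61, SE 0.10, FDR 0.0111), with a call in all 8 fits that left out 1 rat (FDR up to 0.0397). Smad1, its partner in that role, fell by 0.46 on the log2 scale (FDR 0.0409) and kept its call only without Vehicle 2 (largest FDR 0.0996, without BAPN 3). With all rats Smad1 lost its call with other filters (FDR 0.051 and 0.0746). The inhibitory Smads, both feedback targets of the superfamily, were lower as well. Smad7 fell from 35.8 ± 14.5 to 17.0 ± 1.797 CPM (SD, n = 4 each; log2 fold change -1.08, FDR 0.0269), with a call in 4 of the 8 fits (largest FDR 0.0688, without BAPN 3). Smad6 (-1.07, SE 0.33, FDR 0.0497) was just under the threshold and kept its call only without BAPN 2 (largest FDR 0.119, without BAPN 3). With all rats it lost its call at equal totals (FDR 0.055), with other filters (0.0554 and 0.0597) and with scaling by total counts or upper quartile (0.0534 and 0.0538). Smad4 (-0.36, FDR 0.178), Smurf1 (0.01, FDR 0.973) and Smurf2 (-0.18, FDR 0.341) were not called.

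Of 9 further targets and partners of Id proteins 7 were tested and 3 called. Id4, the fourth Id gene, was at 9.27, 17.8, 12.5 and 6.53 CPM in BAPN 1 to 4 and at 22.7, 18.0, 34.7 and 31.6 CPM in Vehicle 1 to 4. The groups touched, with BAPN 2 just below Vehicle 2 (log2 fold change -1.21, SE 0.32, FDR 0.0346), and of the fits with 1 rat left out it kept its call in 2, those lacking BAPN 2 or Vehicle 2 (FDR up to 0.0782). The homeobox target Msx1 fell from 17.5 ± 3.99 to 9.83 ± 1.32 CPM (SD, n = 4 each; log2 fold change -0.83, FDR 0.0247) and kept its call in the same 2 fits. The E protein gene Tcf4 fell by 0.71 on the log2 scale (FDR 0.0299), with a call in 2 of the 8 fits (largest FDR 0.0856, without Vehicle 1). The E protein genes Tcf3 (-0.43, FDR 0.055) and Tcf12 (-0.75, FDR 0.0569) did not pass the threshold in edgeR, although the groups did not overlap for either. Both passed in DESeq2 (FDR 0.0205 and 0.0178) and when scaled by total counts (0.0416 and 0.0495), and Tcf12 also at equal totals (0.0455). The targets Atoh8 (-0.76, FDR 0.207) and Runx2 (-0.01, FDR 0.98) were not called.

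Id4 was set beside the other Id genes within rats, a comparison chosen because Id4 was called and the other Id genes were not, so it is given as a description with no test. The log2 ratio of Id4 to Id2 was -3.88 ± 0.51 with BAPN and -2.28 ± 0.55 with vehicle (SD, n = 4 each), a difference of -1.60. For Id4 to Id1 the difference was -1.25 and for Id4 to Id3 it was -0.79. In each of these ratios, which share Id4, all BAPN rats were below all vehicle rats.

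**Figure D3:**
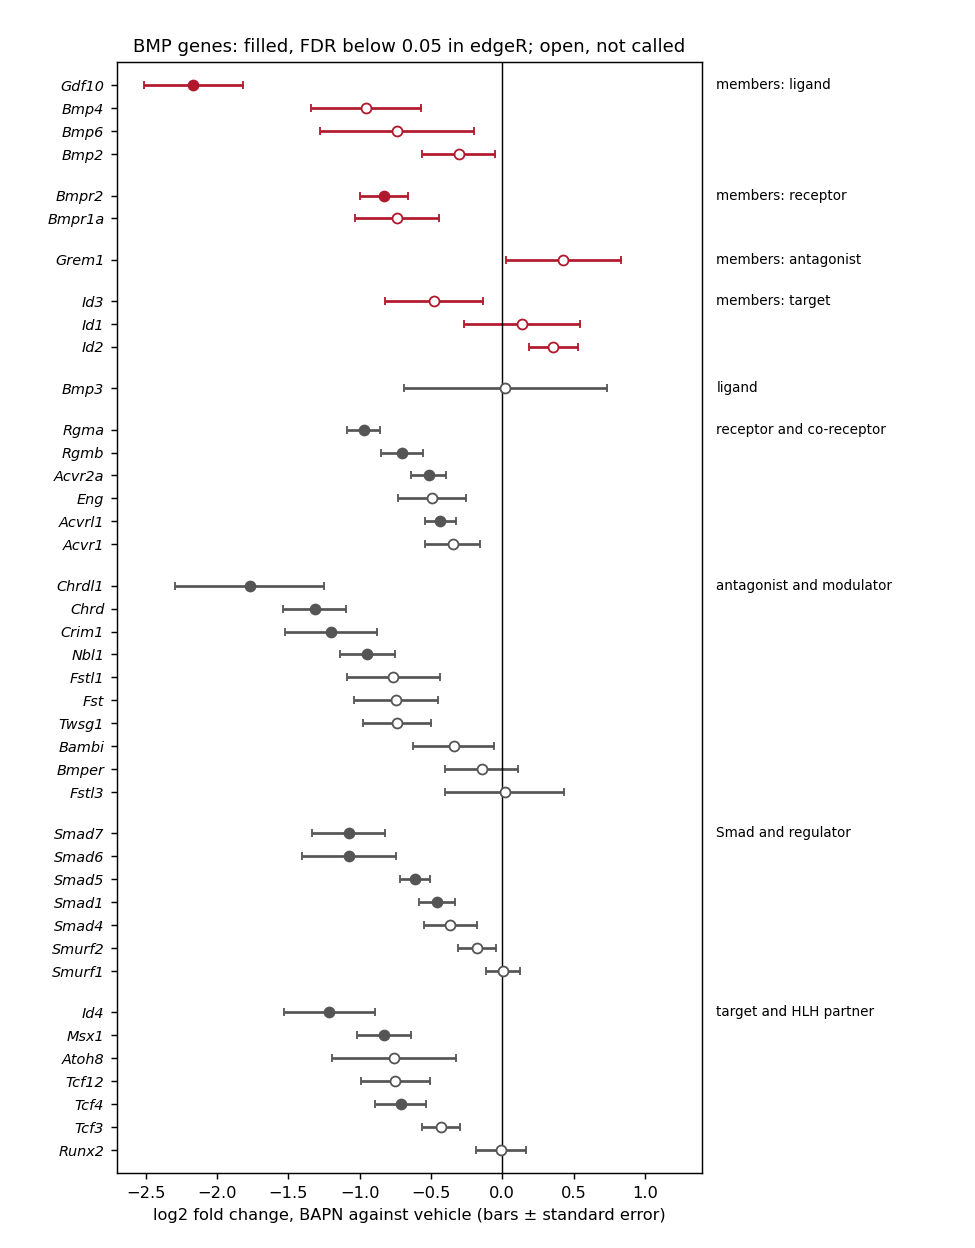
Log2 fold change of BAPN against vehicle in edgeR (horizontal axis, bars ± the limma-voom standard error) for the 10 genes (red) and 31 other tested pathway genes (grey), by role, with filled points for an FDR below 0.05. All 17 filled points lie below 0, and Grem1, Id1 and Id2 are the members above 0.

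With each rat left out in turn, Gdf10 and Bmpr2 stayed well below 0, and no log2 fold change of Bmp2, Bmp4, Bmp6, Bmpr1a or Id3 turned positive. Grem1 had the widest range of the 10 genes, from 0.06 without BAPN 2 to 0.99 without Vehicle 4.

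**Figure D4:**
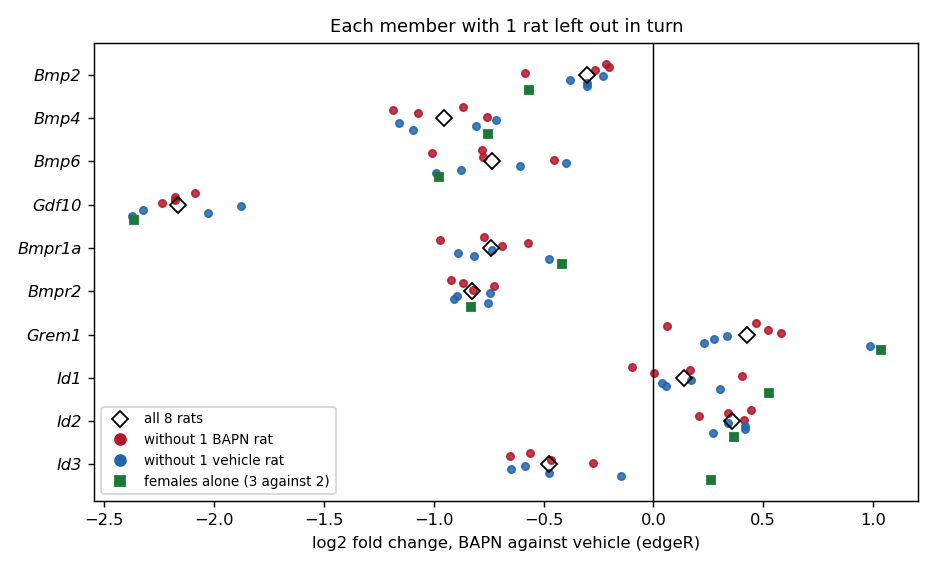
Log2 fold change of the 10 genes in edgeR over all 8 rats (diamonds), with each BAPN rat (red) or vehicle rat (blue) left out in turn, and among females alone (green squares, 3 against 2). Gdf10 stays between -2.37 and -1.88 and Bmpr2 between -0.92 and -0.73, while Id3 is at 0.26 among females and below 0 in the other fits shown.

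For each of the 10 genes the 2 named genes nearest in profile were found by the root mean square difference of log2 CPM over the 8 rats, each gene centred on its own mean. Gdf10 was nearest to Gstt3 (0.227) and Prox1 (0.304), beside a median of 1.15 over all tested genes with a symbol. Bmpr2 was nearest to Usp22 (0.0809) and Foxn3 (0.0826), and Bmpr1a to the modulator Fstl1 (0.0671) and to Glb1l (0.0967), beside medians of 0.55 and 0.627. The nearest to Bmp2 were Numb (0.144) and Cyp2j10 (0.152), those to Bmp4 Plcd3 (0.245) and Hoxc4 (0.33), and those to Bmp6 Lsr (0.344) and Susd4 (0.4). For Grem1 they were Anxa8 (0.217) and Ddah1 (0.251). Id1 was nearest to Cmtm8 (0.185) and Gimap4 (0.237), Id2 to Mrpl38 (0.0794) and Hars2 (0.0875), and Id3 to Efna1 (0.147) and Mcam (0.161). These likenesses are over 8 libraries that differ in treatment, sex and depth, and the part of each in them was not tested.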

How the data were processed

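RNA of 8 outflow veins was sequenced by the authors from ribosomal RNA-depleted, stranded total RNA libraries. The deposited files hold whole-number read counts per rat Ensembl gene, 1 file per rat, without normalization. The submitters' processing notes name bcl2fastq 2.17, Trim Galore and STAR, and the counting tool, its strand setting and the genome build are not given in the sources used here. Groups, replicate numbers and sexes came from the labels, which name separate rats. Libraries within a group differed by far more than sampling noise (chi-square over its degrees of freedom, 68.58 to 320.8), so each counted as 1 replicate.

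The base mean minimum of 100 follows the methods of the study, and genes above it were tested with edgeR 4.0.16 (TMM, quasi-likelihood F test, treatment only) in R 4.3.3. Standard errors and 95% intervals are from limma 3.58.1 (voom), and DESeq2 1.42.0 was run as an alternative and for the base mean. Each interval is centred on the limma-voom estimate and not on the edgeR value beside it. A prior count of 2 was added for log2 CPM. Exact permutation tests used all 70 arrangements, and the smallest p is 0.0286. The steps were checked on counts drawn from the real means and library sizes. Intervals and counts carry no correction for PCR copies.

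The members and lists were chosen with earlier results of these data known. Named genes are the 10 members, every called gene of the pathway list, the tested gene with the largest mean CPM in each role (Bmp3, Eng, Fstl1, Smurf1 and Tcf3) and the 2 nearest profiles per member. Other pathway genes and the Id4 ratios were named after their values were seen. Marker symbols Pecam1, Trac, Myh2 and Trp63 matched no count row and were not used here. 1 tested pathway gene enters the counts but is not reported here by itself. Replicate numbers did not pair the rats (deviations of same-numbered rats correlated between -0.265 and 0.269). Alternatives were other scalings and filters, equal totals, DESeq2, a sex term, a replicate block, females only, and each rat left out.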

Additional observations from a re-analysis of the deposited data

Results flagged for a closer look

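Grem1 in Vehicle 4 stood apart from the other vehicle rats. It was at 116 CPM, against 33.5 to 47.5 CPM in the other 3, and the gap to the nearest of them was 0.83 of the group's range, just above Dixon's 95% critical value for 4 samples. This was the only such case among the 20 sets examined (10 genes in each of 2 groups), and chance gives about 1 in 20. Vehicle 4, a male, also had the highest Bmpr1a (50.4 CPM) and Id3 (192 CPM) of the 8 rats.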

How the results depend on the processing

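The call of Gdf10 held under every alternative run, and that of Bmpr2 under all but the fits among females alone (FDR 0.105) and without Vehicle 1 (FDR 0.0541). The number of the 10 genes called was 1 in those fits, between 1 and 2 with each rat left out, and 3 in DESeq2, which added Bmp4. With sex as a covariate Bmp6 was called as well (-1.15). Reversed values were those of Id1 with sex as a covariate (-0.11) and without BAPN 1 (-0.10; with each rat left out from -0.10 to 0.40), and of Id3 among females alone (0.26). The number of other pathway genes called was 5 with sex as a covariate, 0 among females alone in edgeR (12 at an unadjusted p below 0.05) and 3 to 18 with each rat left out. The number called over all genes was 3202 in DESeq2, 930 with sex as a covariate, 89 among females alone and 397 to 2215 with each rat left out. The replicate numbers did not pair the rats. With the replicate block 556 genes were called over all, 3 of them other pathway genes, and Gdf10 (FDR 0.0447) and Bmpr2 (FDR 0.0412) kept their calls. The fits among females and with a rat left out hold fewer rats, and why the counts moved was not tested. Other scalings moved the median of all genes by less than 0.1. Depth differed between the groups, and thinning to equal totals (19548203) called the same 2 of the 10 genes.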

Other observations

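24 of the 56 further pathway genes were under the filter on low counts and were not tested. Among them the ligand Bmp5 was at 0.631 to 1.04 CPM (32 to 45 reads) with BAPN and at 0.988 to 3.39 CPM (20 to 71 reads) with vehicle, with an overlap of 1 vehicle rat. The antagonist Nog, just under the filter with a base mean of 98.3, was at 2.97, 1.93, 3.74 and 0.96 CPM in BAPN 1 to 4 and 6.74, 5.34, 1.09 and 2.01 CPM in Vehicle 1 to 4. In each group the males were below the females. The BMP9 gene Gdf2 had no reads in any rat, and Bmp10 had 1 read in 1 rat.

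The antagonist Grem1 was set over the ligands it can meet as a ratio within each rat, chosen after the values were seen. Counts were not divided by transcript length, so the ratio is compared between rats only. Its size does not measure the balance of antagonist and ligands. Grem1 CPM over the summed CPM of Bmp2, Bmp4 and Bmp6 was 2.09 to 3.86 with BAPN and 0.676 to 3.60 with vehicle. Vehicle 4 was the vehicle rat within the BAPN range. The mean log2 ratio was 1.21 higher with BAPN, which did not pass an exact two-sided permutation test (p = 0.114, n = 4 each).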
